A study of Rattus norvegicus with 6 samples.

Results

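Genes of the extracellular matrix scaffold were followed in primary rat brain microvascular endothelial cells (rBMECs) given homocysteine (Hcy) or its vehicle (Veh). The set comprised the collagens outside the basement membrane types, elastin, fibrillins, latent TGF-beta binding proteins (LTBPs), fibulins, emilins and lysyl oxidases. Its members were taken by gene symbol from the count table, with the Col4a genes, Col15a1 and Col18a1 left out, and 53 of the 33566 genes listed met the rule. rBMECs line the capillaries of the brain. They were isolated with a commercial kit from SD rats aged 18 to 22 days, from the cerebral cortex by the labels and the cerebral forebrain by the study's methods, treated with a screening solution meant to remove other cells and used after 1 passage. Hcy, an amino acid formed from methionine, was applied for 24 h to the cells of 3 libraries, and the cells of the other 3 received double-distilled water. The labels give the dose as 100 μM, while the treatment text also names an Hcy solution of 50 μM. Poly(A) RNA was sequenced, and the design describes the 3 libraries of each group as biological replicates without saying whether they came from separate isolations, so p-values measure the spread between these libraries.

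Fibrillar collagens assemble into the tensile fibrils of interstitial matrix, and FACIT collagens sit on the surface of such fibrils. Elastic fibres consist of an elastin core on a scaffold of fibrillin microfibrils, with fibulins and emilins as assembly partners, and LTBPs tether latent TGF-beta to these microfibrils. Lysyl oxidases are copper-dependent enzymes that oxidize lysine residues of collagen and elastin, the step that starts covalent cross-linking. In healthy brain microvessels the endothelium rests on a basement membrane of type IV collagen and laminin, and interstitial collagens lie mainly around larger vessels.

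Read counts per library were between 14024997 and 16764584. A gene was tested where its counts over the 6 libraries came to 10 or more, which 14603 genes did, and a level of 3 counts, 0.178 to 0.215 CPM (counts scaled to library size with edgeR's TMM factors), was taken as the floor of detection, which covers counting error only. Along the second principal component of the expressed genes (26.2% of the variance), Veh replicate 3 lay at 30.4 and the other Veh libraries at -15.9 and -19, so values of members described library by library that turn on it are also given without it. Of 14 endothelial markers listed, 13 had a row in the table under their symbol. The missing marker was Pecam1, the gene for CD31, which the study stained to check cell purity. Of those 13, 12 had a mean RPKM (CPM per kilobase of the listed gene length) of at least 1. Their summed level was 10499 to 10925 CPM in Hcy and 9001 to 10417 CPM in Veh. Among those 12, Hcy was the higher group in 8 and the lower in 4, with 0 past the adjusted p from edgeR, while 6 were at an unadjusted p of at most 0.05 (as were 13.4% of all genes tested) and 2 passed with DESeq2 (4.59% of all genes it gave an adjusted p). The receptors Eng (log2 fold change -0.27, DESeq2 adjusted p = 0.0419) and Tek (-0.24) were lower in every Hcy library, while Vwf, the von Willebrand factor (0.36, DESeq2 adjusted p = 0.0104), and the VEGF receptors Kdr (0.37) and Flt1 (0.25) were higher in every Hcy library. Robo4, the remaining one of the 6, stood at 23.8, 23.4 and 3.34 CPM in Hcy and 5.40, 4.01 and 2.70 CPM in Veh, where the groups overlapped. Cldn5, a tight junction claudin of this endothelium, had 0 counts in every library. The study's Western blots show Claudin-5 protein in rBMECs, so these 0 counts are not read here as absence of the gene's product. The Cldn5 row overlaps Cdc45 on the other strand, which had 1268 counts, and whether counting used the strand is not given in the sources used here. In bulk RNA, fewer cells of a type and less RNA per cell cannot be told apart.

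Of the 5 lysyl oxidases 2 passed the adjusted p from edgeR between Hcy and Veh, as did 1 collagen. Lox fell in Hcy to a level 62.7% lower than in Veh, and Loxl1 fell to a level 42.4% lower. Among the collagens, Col5a2 rose by 40.5%, whereas Col1a1, which codes for the main chain of type I collagen, did not pass the test. Ltbp1 and Ltbp2, the most abundant members per length, gave small differences that did not pass either. Of the 53 members, 41 were tested, 20 of them higher and 21 lower in Hcy, with a median log2 fold change of -0.05 beside -0.02 over all genes tested. Lox alone was called at an adjusted p no greater than 0.05 with a log2 fold change of 1 or more in size, thresholds that 0.486% of all genes tested met, 0.233% in the lower direction. Lox, Loxl1 and Col5a2 passed the edgeR adjusted p without the fold threshold, 3 of 41 against 2.34% of all genes (1.01% lower and 1.32% higher in Hcy). With DESeq2 these and Col12a1 passed, 4 members beside 4.59% of all genes it gave an adjusted p. With the unadjusted p and the same fold threshold, 3 of 41 members (Lox, Loxl3 and Col19a1) stood against 2.56% of all genes.

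The 250 bases before the annotated start are shown from RefSeq for lysyl oxidases with a window there and for Col5a2. Every lysyl oxidase had a fitted log2 fold change below 0, although only Lox and Loxl1 passed the test. Col5a2 was the collagen that passed in edgeR. Of the 53 members, 39 had such a window (assembly GRCr8). Lox, the only member called, and Loxl2 had none there, so neither is shown. The CCAAT box letters, the TATA box letters TATAAA, the hypoxia element core ACGTG and its variant GCGTG, which differ from each other only in their first letter, were searched on both strands, and matches are in capitals. For Loxl1 (chr8:67612225-67612474, minus strand), Loxl3 (chr4:117098108-117098357, plus strand), Loxl4 (chr1:251365578-251365827, minus strand) and Col5a2 (chr9:55090152-55090401, minus strand), the windows read 5′ to 3′ along the gene:
Loxl1: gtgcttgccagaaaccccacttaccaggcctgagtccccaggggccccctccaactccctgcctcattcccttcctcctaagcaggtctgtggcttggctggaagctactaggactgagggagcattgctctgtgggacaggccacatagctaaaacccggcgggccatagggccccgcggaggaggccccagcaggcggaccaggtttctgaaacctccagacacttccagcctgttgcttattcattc
Loxl3: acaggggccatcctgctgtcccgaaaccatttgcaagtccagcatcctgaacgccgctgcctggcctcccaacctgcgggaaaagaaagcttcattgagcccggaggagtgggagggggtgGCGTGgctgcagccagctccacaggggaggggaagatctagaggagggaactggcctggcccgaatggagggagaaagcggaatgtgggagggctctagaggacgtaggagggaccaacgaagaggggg
Loxl4: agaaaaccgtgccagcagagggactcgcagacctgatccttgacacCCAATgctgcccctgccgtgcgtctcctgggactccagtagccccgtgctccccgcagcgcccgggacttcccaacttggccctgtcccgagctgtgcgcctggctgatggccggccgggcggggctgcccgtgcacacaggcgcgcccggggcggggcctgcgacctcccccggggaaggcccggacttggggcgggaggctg
Col5a2: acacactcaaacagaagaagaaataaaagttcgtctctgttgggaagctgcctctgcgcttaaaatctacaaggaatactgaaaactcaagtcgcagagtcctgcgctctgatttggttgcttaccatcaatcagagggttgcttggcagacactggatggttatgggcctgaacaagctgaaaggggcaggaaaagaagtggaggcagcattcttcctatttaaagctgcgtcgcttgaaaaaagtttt
The Loxl1 and Col5a2 windows held none of these letter strings. Loxl3 held GCGTG at 129 bases before the start, and Loxl4 held CCAAT at 204 bases before it. Over all 33469 windows of this length, CCAAT was present in 34.0%, TATAAA in 12.9%, ACGTG in 16.6% and GCGTG in 25.9%, and in the 45 windows of members in 12, 3, 5 and 14. The GC content was 60.4% for Loxl1, 62.4% for Loxl3, 72.8% for Loxl4 and 44.8% for Col5a2, beside a median of 51.2% over all windows. A match is a run of letters, not a shown binding site.

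Lox, on chromosome 18 from 47500330 to 47577819 (minus strand, as listed in the table), codes for the founding enzyme of the family. Its level was 14.4, 16.8 and 18.0 CPM in Hcy replicates 1 to 3 and 47.3, 38.0 and 46.8 CPM in Veh replicates 1 to 3. Every Hcy library lay below every Veh library, and the highest Hcy level was under the lowest Veh level by more than the SD of either group (16.4 ± 1.86 CPM in Hcy and 44.0 ± 5.21 CPM in Veh, SD, n = 3). The log2 fold change was -1.42 (standard error 0.12, 95% interval -1.70 to -1.14, Benjamini-Hochberg adjusted p = 0.000801 in edgeR's quasi-likelihood test). Lox passed the adjusted p in each of the 13 alternative settings. These included DESeq2, a different test, and a prior count of 2. The prior count enters the fitted fold change and not the test, so that setting could not move the adjusted p and is no check of it. The log2 fold change of Lox lay between -1.52 and -1.34 as libraries were left out 1 at a time. The genes that overlap Lox on the other strand, Zfp474 and a Y RNA, had 0 counts.

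Loxl1, on chromosome 8 from 63067300 to 63092009 (minus strand), codes for the paralogue needed for elastic fibre upkeep. It measured 5.31, 6.65 and 6.21 CPM in Hcy and 11.7, 9.69 and 10.2 CPM in Veh. As for Lox, the groups did not overlap. The log2 fold change was -0.79 (standard error 0.15, 95% interval -1.14 to -0.45, adjusted p = 0.031 in the same edgeR test). Loxl1 no longer passed when any library but Veh replicate 3 was left out: the adjusted p from edgeR was 0.139, 0.0843 and 0.135 without Hcy replicates 1, 2 and 3, 0.127 and 0.0771 without Veh replicates 1 and 2, and 0.0161 without Veh replicate 3, while the log2 fold change stayed between -0.87 and -0.71.

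The other lysyl oxidases did not pass the test. Loxl2 and Loxl4 code for members of the branch with scavenger receptor domains. Loxl2 measured 12.7, 12.9 and 13.4 CPM in Hcy and 18.1, 17.4 and 10.5 CPM in Veh. Loxl4 measured 9.62, 11.2 and 9.43 CPM in Hcy and 12.9, 13.1 and 7.54 CPM in Veh. In both genes Veh replicate 3 lay below all Hcy libraries and Veh replicates 1 and 2 above them. The log2 fold changes were -0.24 for Loxl2 (95% interval -0.68 to 0.19, edgeR adjusted p = 0.67) and -0.16 for Loxl4 (95% interval -0.63 to 0.32, edgeR adjusted p = 0.822). Without Veh replicate 3, Loxl2 had a log2 fold change of -0.45 and passed (edgeR adjusted p = 0.0388), while Loxl4 had -0.37 and did not (edgeR adjusted p = 0.138). Without Veh replicate 1 or 2, the values were -0.10 and -0.15 for Loxl2 and -0.04 and -0.03 for Loxl4.

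Loxl3, a further member of that branch, was scarce, with 6, 5 and 14 counts in the Hcy libraries against 21, 20 and 14 in the Veh libraries. Scaled to library size these are 0.431, 0.336 and 0.836 CPM against 1.25, 1.27 and 0.969 CPM. The groups did not overlap after scaling, although the highest Hcy count equalled the lowest Veh count. The log2 fold change of -1.10 had a standard error of 0.43, and the gene did not pass (edgeR adjusted p = 0.296).

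Summed over the 5 lysyl oxidases, the level was 42.4, 47.8 and 47.9 CPM in Hcy and 91.3, 79.5 and 76.0 CPM in Veh. All 5 had a fitted log2 fold change below 0, with a median of -0.79, and this sign held for each gene in all 13 alternative settings. Of all genes tested, 46.9% were higher in Hcy. Only 2 of the 5 passed the test, beside 1.01% of all genes that were lower and past the adjusted p. At an unadjusted p of at most 0.05 were 3 of them (Lox, Loxl1 and Loxl3), beside 13.4% of all genes in either direction. Per length, Lox made up 21.4%, 22.6% and 24.4% of the summed lysyl oxidase RPKM in Hcy and 36.7%, 33.0% and 46.5% in Veh. This share was computed after the levels were seen and restates the fall of Lox relative to the other members of the family. In Veh the order per length was Lox (9.16 RPKM), Loxl2 (6.82), Loxl4 (3.79), Loxl1 (3.77) and Loxl3 (0.364), with Loxl4 and Loxl1 within each other's SD. In Hcy, Loxl2 led with 5.78 RPKM, followed by Lox and Loxl4 with 3.41 RPKM each, Loxl1 with 2.17 and Loxl3 with 0.167.

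**Figure D1:**
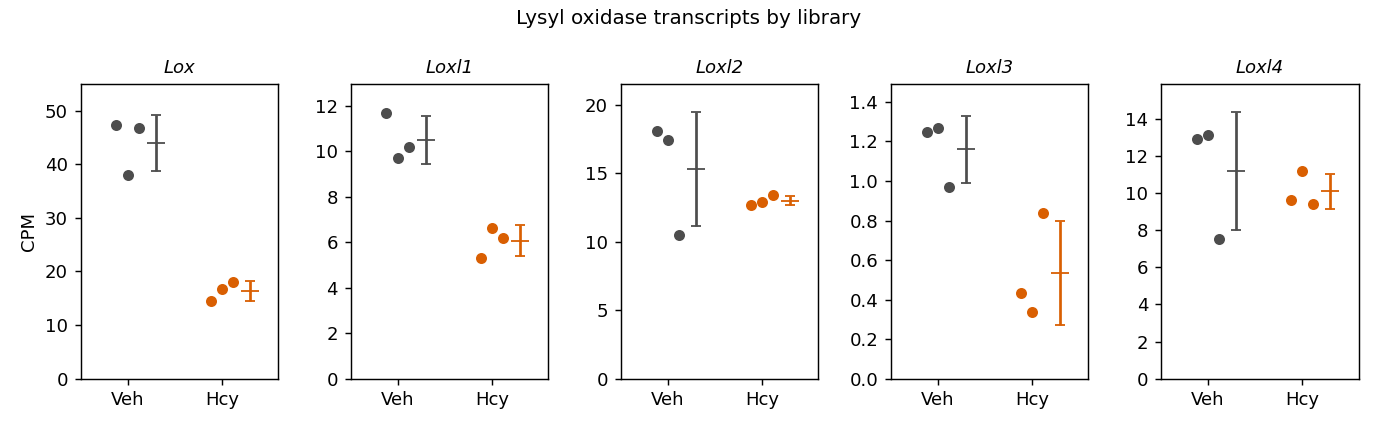
Level of the 5 lysyl oxidase transcripts in CPM in each library (points, 3 Veh and 3 Hcy), with the group mean and SD beside them. Lox lies at 14.4 to 18.0 CPM in Hcy and 38.0 to 47.3 CPM in Veh, Loxl1 and Loxl3 also do not overlap, and Veh replicate 3 is the low Veh point of Loxl2 and Loxl4.

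Markers of mural cells, the pericytes and smooth muscle cells of vessels, were examined beside the lysyl oxidases. Of 12 tested, 6 were higher and 6 lower in Hcy, with a median log2 fold change of 0.20, and 3 passed the adjusted p, each lower (1.01% of all genes tested were lower and past it). These were Acta2 (log2 fold change -0.64, edgeR adjusted p = 0.0248), Tagln (-0.88, edgeR adjusted p = 0.000801) and Cnn1 (-1.39, edgeR adjusted p = 0.00177). The summed level of the list was 681 to 708 CPM in Hcy and 1124 to 1353 CPM in Veh, and none of the markers was at 0 in all libraries. Only these 3 had a mean RPKM of at least 1. Acta2, smooth muscle actin, measured 103, 93.2 and 90.7 CPM in Hcy and 159, 123 and 166 CPM in Veh. Tagln, the actin-binding transgelin, measured 590, 572 and 586 CPM in Hcy and 1078, 976 and 1158 CPM in Veh, and Cnn1, calponin 1, measured 8.19, 6.92 and 9.55 CPM in Hcy and 22.1, 20.3 and 22.2 CPM in Veh. All 3 were lower in every Hcy library, and the low-level markers of the list were mixed. Myh11, smooth muscle myosin, had a log2 fold change of -0.04 (edgeR adjusted p = 0.981), and Cspg4 and Rgs5, pericyte genes, were higher in every Hcy library at a low level without passing (1.66 and 1.26, edgeR adjusted p = 0.188 and 0.464). Kcnj8, a further pericyte gene at a low level, was lower in every Hcy library without passing (-0.99, edgeR adjusted p = 0.46). Pdgfrb, the receptor that defines pericytes, measured 2.73, 3.63 and 1.79 CPM in Hcy and 1.37, 1.21 and 2.35 CPM in Veh. Tagln overlaps Sidt2 on the other strand, which had 9643 counts, and Acta2 did not pass without Hcy replicate 1, 2 or 3 or Veh replicate 1 (edgeR adjusted p between 0.0806 and 0.145). The part of mural cells in the lysyl oxidase results was not tested.

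Fibroblasts are a known source of interstitial collagens, and their markers were low in both groups. Of 13 listed, 8 were tested and 0 passed the adjusted p from edgeR, and likewise 0 at an unadjusted p of at most 0.05 and 0 with DESeq2. Their summed level was 7.72 to 9.31 CPM in Hcy and 6.56 to 7.48 CPM in Veh. Thy1, whose groups overlapped, made up the largest part of this sum, and no marker of the list separated the groups. Dpt, Slc6a13 and Tcf21 were at 0 in all libraries, and Dcn and Lum had at most 5 counts in any library. Astrocyte markers summed to 113 to 117 CPM in Hcy and 126 to 151 CPM in Veh, with Aqp4 and Slc1a2 at 0. Nearly all of it was Gja1, a gap junction connexin, which was lower in every Hcy library (log2 fold change -0.28, edgeR adjusted p = 0.152) and the 1 astrocyte marker at an unadjusted p of at most 0.05. Microglia and leukocyte markers summed to at most 1.94 CPM in any library. Neuron and oligodendrocyte markers summed to 17.7 to 21.5 CPM in Hcy and 16.6 to 18.5 CPM in Veh, with Rbfox3 and Snap25 at 0. Syt1, a synaptic vesicle protein gene, was the 1 of these at an unadjusted p of at most 0.05 and was higher in every Hcy library at a low level (0.85, edgeR adjusted p = 0.195). None of the astrocyte, microglia or neuron and oligodendrocyte markers passed the adjusted p from edgeR or DESeq2. The part of these cells in the member results was not tested.

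The collagens did not share a direction. Of 34 in the set, 23 were tested, 12 higher and 11 lower in Hcy, with a median log2 fold change of 0.04. Only Col5a2 passed the adjusted p from edgeR, while with DESeq2 Col12a1 passed too. At an unadjusted p of at most 0.05 were 4 fibrillar collagens (Col1a1, Col3a1, Col5a2 and Col5a3), 2 FACIT collagens (Col12a1 and Col19a1) and Col7a1, beside 13.4% of all genes. Of these, Col1a1 and Col7a1 were lower and the others higher. In 5 of the 23 every Hcy library lay above every Veh library, and in 2 every Hcy library lay below. Over all 41 members tested, 6 separated upwards and 5 downwards, against 10.8% and 9.27% of all genes (20.1% in either direction), so that separation of the groups was common in these data and is read here only as a description.

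Col5a2, on chromosome 9 from 52092511 to 52238564 (minus strand), codes for the alpha-2 chain of type V collagen, which is built into type I fibrils and limits their diameter. It measured 52.5, 51.9 and 55.5 CPM in Hcy and 40.5, 36.5 and 36.8 CPM in Veh. The Hcy libraries were all higher, and the replicates of each group were close together (53.3 ± 1.95 CPM and 37.9 ± 2.23 CPM, SD, n = 3). This gave a log2 fold change of 0.49 (standard error 0.08, 95% interval 0.31 to 0.67, edgeR adjusted p = 0.0145), below the fold threshold of a call. It stayed between 0.46 and 0.54 when each library was left out, but the edgeR adjusted p was then 0.0765, 0.0625 and 0.104 without Hcy replicates 1, 2 and 3, 0.0654 without Veh replicate 2, and past the threshold without Veh replicate 1 (0.0376) or 3 (0.00456).

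The partner chains of Col5a2 did not pass the test. Col5a3, a further type V chain, measured 18.5, 23.4 and 23.1 CPM in Hcy and 16.4, 17.6 and 15.6 CPM in Veh, with separate groups (log2 fold change 0.39, standard error 0.12, 95% interval 0.11 to 0.67, edgeR adjusted p = 0.184). Col5a1, the chain present in most type V molecules, had a log2 fold change of 0.05 with a 95% interval of -0.29 to 0.38 (edgeR adjusted p = 0.939). Both intervals overlapped that of Col5a2, and differences between these chains were not tested. Without Veh replicate 3 the sign of Col5a1 turned.

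Col3a1, the single chain of type III collagen, is the neighbour of Col5a2 on chromosome 9, with 33.3 kb and no listed gene between their 3′ ends. It measured 12.6, 9.20 and 10.5 CPM in Hcy and 9.91, 5.99 and 7.34 CPM in Veh. The groups overlapped, since Veh replicate 1 exceeded Hcy replicate 2. Its log2 fold change was 0.47 (standard error 0.20, 95% interval 0.01 to 0.93, edgeR adjusted p = 0.363), with 0.31 without Veh replicate 2 and 0.69 without Veh replicate 1.

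Col1a1, on chromosome 10 from 82745801 to 82762789 (plus strand), went the other way in its fitted value. It measured 54.4, 34.2 and 55.6 CPM in Hcy and 69.1, 55.8 and 82.0 CPM in Veh. The groups were separate by a narrow margin, between Hcy replicate 3 and Veh replicate 2, and both groups were wide. On the log2 scale the difference was -0.52 (standard error 0.19, 95% interval -0.96 to -0.08), and the gene did not pass (edgeR adjusted p = 0.264). The value was -0.33 without Hcy replicate 2, -0.38 without Veh replicate 3 and -0.65 without Veh replicate 2.

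Type I collagen also contains an alpha-2 chain. The table holds no row with the symbol Col1a2, and a row named NEWGENE_621351 carries a description as collagen alpha-2(I), which was looked up after values were seen and is not a member. It had 108, 78 and 253 counts in the Hcy libraries against 191, 167 and 256 in the Veh libraries. Scaled to library size, these are 7.76, 5.24 and 15.1 CPM against 11.3, 10.6 and 17.7 CPM. The groups overlapped, since Hcy replicate 3 lay above Veh replicates 1 and 2, and the log2 fold change of -0.49 had a standard error of 0.35 (edgeR adjusted p = 0.63). A second row of that name had 0 counts in all libraries, and how reads that fit both copies were treated is not given in the sources used here.

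A ratio of a type I to a type V chain within libraries is given as a description only, since it was formed after both genes were seen to go opposite ways. Col1a1 RPKM divided by Col5a2 RPKM was 0.797, 0.507 and 0.77 in Hcy and 1.31, 1.18 and 1.72 in Veh (means 0.691 ± 0.16 and 1.4 ± 0.28, SD, n = 3). All Hcy ratios lay below all Veh ratios, as that choice made likely, and the ratio does not show which gene moved.

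Col12a1, a FACIT collagen of fibril surfaces, measured 36.7, 41.4 and 37.7 CPM in Hcy and 31.9, 27.8 and 19.5 CPM in Veh. The groups were separate, with Veh replicate 3 lowest. Its log2 fold change of 0.55 (standard error 0.16, 95% interval 0.18 to 0.91) did not pass in edgeR (adjusted p = 0.152) and passed with DESeq2 (adjusted p = 0.0277). Without Veh replicate 3 the log2 fold change was 0.37 and the edgeR adjusted p 0.0403.

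Col19a1, a rare FACIT collagen, had the largest positive log2 fold change of the members tested. It had 20, 30 and 28 counts in the Hcy libraries against 14, 8 and 11 in the Veh libraries, or 1.44, 2.02 and 1.67 CPM against 0.831, 0.51 and 0.761 CPM. The groups were separate at a low level. Its fitted value was 1.27 on the log2 scale (standard error 0.33, 95% interval 0.52 to 2.03), without passing (edgeR adjusted p = 0.102). Its neighbour Col9a1, 12.8 kb away on chromosome 9, had 0 counts in all libraries.

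Col7a1, which forms the anchoring fibrils under epithelia, measured 3.81, 3.22 and 2.92 CPM in Hcy and 5.40, 5.10 and 6.85 CPM in Veh. Col13a1, a transmembrane collagen, measured 2.73, 2.55 and 2.15 CPM in Hcy and 1.84, 1.78 and 1.38 CPM in Veh. Both were separate between groups, in opposite directions. The value for Col7a1 was -0.80 on the log2 scale (standard error 0.20, edgeR adjusted p = 0.0925) and that for Col13a1 was 0.56 (standard error 0.25, edgeR adjusted p = 0.375), and neither passed.

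**Figure D2:**
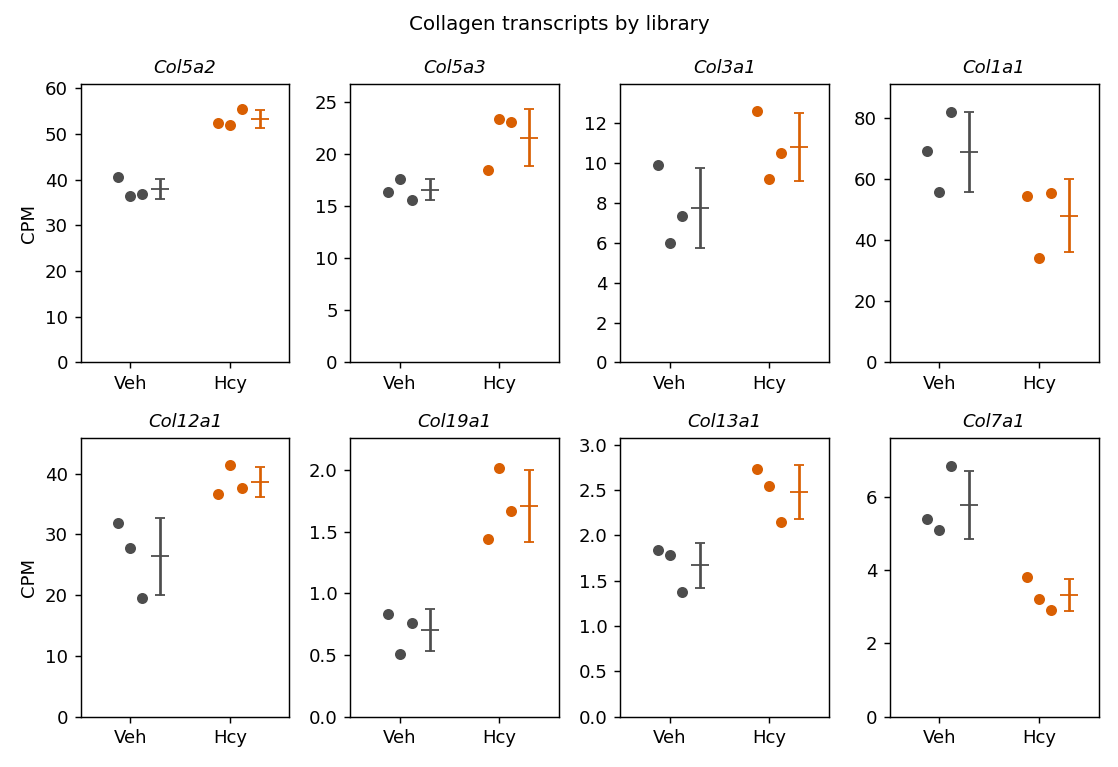
Level of 8 collagen transcripts in CPM in each library (points), with group mean and SD beside them. Col5a2, Col5a3, Col12a1, Col19a1 and Col13a1 are higher in all Hcy libraries, Col1a1 and Col7a1 lower, and the Col3a1 groups overlap. Only Col5a2 passed the adjusted p from edgeR. With DESeq2, Col12a1 passed too.

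The remaining collagens gave no call. Among the fibrillar group, 7 of 9 tested were higher and 2 lower (median log2 fold change 0.19), with Col27a1 at 0.26 (95% interval -0.32 to 0.83). This median was 0.05 without Hcy replicate 3 and 0.29 without Hcy replicate 1, and without Veh replicate 3 the tally was 5 higher and 4 lower. Col2a1, the cartilage collagen, had at most 6 counts in any library, so its log2 fold change of -1.92 carries a standard error of 1.26. Col11a1 and Col11a2, its partners in cartilage fibrils, had at most 14 and 4 counts in a library, with log2 fold changes of 0.19 and 0.04. Col24a1 had 1 count in all and was not tested. The scarce cartilage genes thus gave intervals that span 0 widely.

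Of the FACIT group 6 were tested, 3 higher and 3 lower (median 0.25, with 0.10 without Veh replicate 3 and 0.38 without Veh replicate 1). Col16a1, the other one with a mean RPKM of at least 1 beside Col12a1, had a log2 fold change of -0.05 (95% interval -0.45 to 0.34). Col9a2 and Col9a3, chains of the cartilage type IX collagen, stood at -0.83 and 0.89 with standard errors of 0.72 and 0.55, on at most 12 counts a library. Col20a1 had at most 7 counts a library and a value of -0.74. Col14a1 had 1 count in all, and Col22a1 and Col9a1 had 0.

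Of the beaded filament and network group 6 were tested, 1 higher and 5 lower (median -0.34, with -0.16 without Hcy replicate 3), and 0 passed the adjusted p from edgeR or DESeq2. With all libraries, only Col7a1 of these separated the groups, and it was the 1 gene of them at an unadjusted p of at most 0.05. Col8a1, a short-chain network collagen of vessel walls, was the most abundant of them per length, with 4.88 RPKM in Hcy and 5.59 in Veh, a log2 fold change of -0.20 and a 95% interval of -0.65 to 0.25 (edgeR adjusted p = 0.75). Col6a1 and Col6a2, chains of the microfibrillar type VI collagen that lie 97.9 kb apart on chromosome 20, had log2 fold changes of -0.55 and -0.13 (edgeR adjusted p = 0.375 and 0.896). Col6a4, Col6a5 and Col6a6, side by side on the minus strand of chromosome 8, were nearly silent: Col6a5 had 0 counts, Col6a4 had 1 in all, and Col6a6 had at most 4 a library. Col8a2 had at most 5 counts in a library, Col26a1 at most 1, and Col10a1 and Col28a1 had 0. The Col10a1 row overlaps Nt5dc1 on the other strand, which had 1428 counts.

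Of the 4 transmembrane collagens, Col13a1 and Col17a1 were tested. Col17a1, a hemidesmosome component of epithelia, had at most 3 counts a library (log2 fold change -0.69, standard error 1.07). Col23a1 and Col25a1 had at most 2 and 1 counts in any library and were not tested.

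The plot of levels per gene length orders the members within their groups. By mean RPKM over the 6 libraries, Ltbp1 (29.1) and Ltbp2 (21.6) led, followed by Col5a2 (10.2), Col1a1 (10.0) and Ltbp4 (8.98). Ltbp1 and Ltbp2 differed from each other by more than their SD in both groups, and Col5a2 and Col1a1 exchanged places, with 11.9 and 8.25 RPKM in Hcy and 8.46 and 11.8 RPKM in Veh. In Veh, Lox (9.16 RPKM) and Ltbp4 (8.66) also stood above Col5a2, and in Hcy Ltbp4 (9.29) stood above Col1a1. Each of these last gaps was smaller than the larger SD of its pair. A mean RPKM of at least 1 was reached by 20 of the 53 members. The members together took 0.0713% to 0.0730% of the TMM-scaled library size in the Hcy libraries against 0.0685% to 0.0838% in Veh. The Hcy totals lay within the Veh range only because Veh replicate 3 was the lowest of all, since the other Veh libraries, at 0.0838% and 0.0758%, were above every Hcy library.

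**Figure D3:**
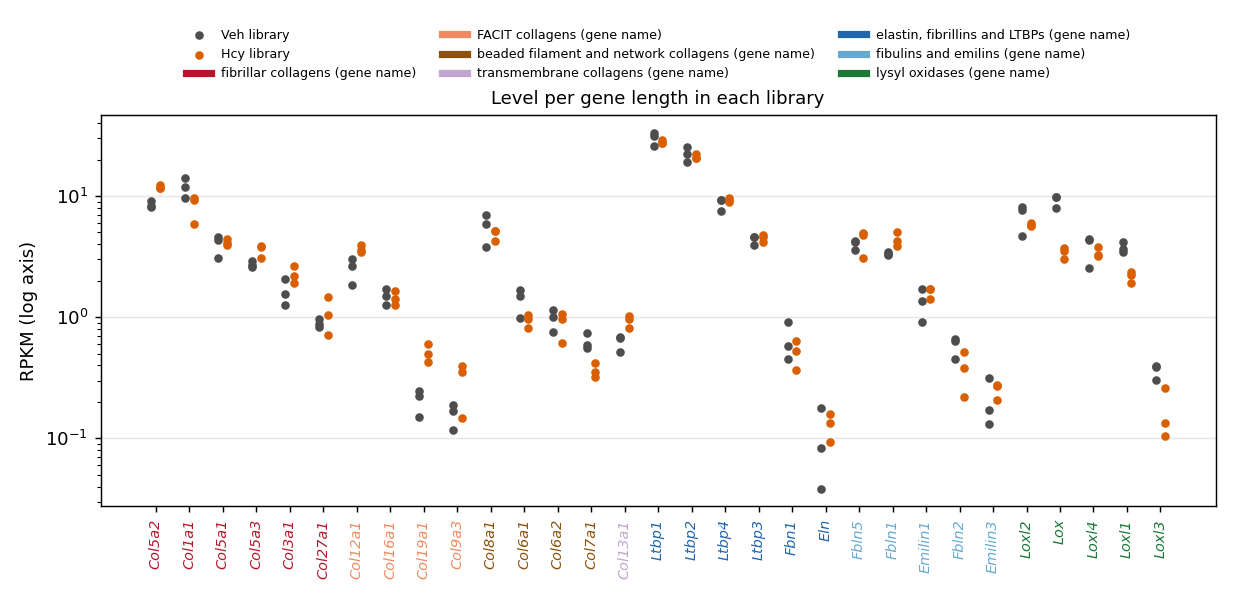
Level per gene length (RPKM, logarithmic axis) of the 31 members with a mean RPKM of at least 0.1, each library as a point, gene names coloured by group. Ltbp1 and Ltbp2 stand highest, Lox drops from about the level of Col5a2 in Veh to 3.41 RPKM in Hcy, and Eln lies near the bottom.

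The elastic fibre members were dominated by the LTBPs. Of the 7 elastin, fibrillin and LTBP genes, 3 were higher and 4 lower in Hcy (median log2 fold change -0.09), and 1 was higher and 6 lower without Veh replicate 3 (median -0.19). In neither case did 1 of them pass the adjusted p from edgeR, and 0 were at an unadjusted p of at most 0.05 or past DESeq2's adjusted p with all libraries. Ltbp1, the main carrier of latent TGF-beta, measured 172, 181 and 171 CPM in Hcy and 207, 196 and 162 CPM in Veh. Ltbp2, which binds fibrillin but not latent TGF-beta, measured 148, 138 and 137 CPM in Hcy and 172, 149 and 128 CPM in Veh. In both genes every Hcy library lay below Veh replicates 1 and 2 and above Veh replicate 3. The log2 fold changes were -0.11 for Ltbp1 (95% interval -0.32 to 0.11, edgeR adjusted p = 0.71) and -0.09 for Ltbp2 (95% interval -0.33 to 0.15, edgeR adjusted p = 0.801), and without Veh replicate 1 they were -0.03 and 0.03. Without Veh replicate 3 they were -0.20 for Ltbp1 (edgeR adjusted p = 0.0745) and -0.19 for Ltbp2 (edgeR adjusted p = 0.176).

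Ltbp4, which promotes elastic fibre assembly, measured 51.5, 49.2 and 48.1 CPM in Hcy and 49.6, 49.1 and 40.1 CPM in Veh. The groups overlapped, and the log2 fold change was 0.10 (95% interval -0.12 to 0.32, edgeR adjusted p = 0.732), with 0.01 without Veh replicate 3. Ltbp3 had a log2 fold change of 0.04 (95% interval -0.21 to 0.30), and its sign turned without Hcy replicate 1 or Veh replicate 3. With all libraries, the intervals of the 4 LTBPs lay between -0.33 and 0.32 on the log2 scale.

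Elastin and the fibrillins were scarce. Eln had 8, 5 and 8 counts in the Hcy libraries against 5, 10 and 2 in the Veh libraries. These counts overlapped, and the log2 fold change of 0.35 had a 95% interval of -1.04 to 1.74 (edgeR adjusted p = 0.874), moving between -0.01 without Veh replicate 3 and 1.03 without Veh replicate 2. This interval holds values of either sign, and no limit of detection for a difference was measured. Fbn1, the main microfibril protein, measured 5.24, 3.63 and 6.27 CPM in Hcy and 9.08, 5.73 and 4.50 CPM in Veh. Its groups overlapped widely (log2 fold change -0.35, 95% interval -1.01 to 0.31, edgeR adjusted p = 0.682), and the value was -0.02 without Veh replicate 1, -0.55 without Veh replicate 3, -0.16 without Hcy replicate 2 and -0.54 without Hcy replicate 3. Fbn2, the fibrillin of developing tissue, had at most 5 counts a library.

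Of the fibulins and emilins 6 were tested, 5 higher and 1 lower in Hcy, with a median log2 fold change of 0.29 and 0 past the adjusted p from edgeR or DESeq2, and 1 at an unadjusted p of at most 0.05. This gene was Fbln1. Fbln1, a fibulin of elastic fibres and vessel walls, measured 13.6, 16.3 and 12.5 CPM in Hcy and 11.1, 10.7 and 10.6 CPM in Veh. The groups were separate, and the gene did not pass (log2 fold change 0.39, standard error 0.13, edgeR adjusted p = 0.221). Fbln5, which links tropoelastin to microfibrils, measured 12.2, 11.8 and 7.70 CPM in Hcy and 10.6, 8.98 and 10.3 CPM in Veh, with a log2 fold change of 0.08 (95% interval -0.34 to 0.50). Fbln2, the 1 lower gene, had a value of -0.64 (95% interval -1.41 to 0.12, edgeR adjusted p = 0.479). Emilin1, an elastin interface protein, had a value of 0.27 (95% interval -0.25 to 0.80). Emilin2 and Emilin3 had at most 4 and 11 counts a library, and Fbln7 had 0.

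**Figure D4:**
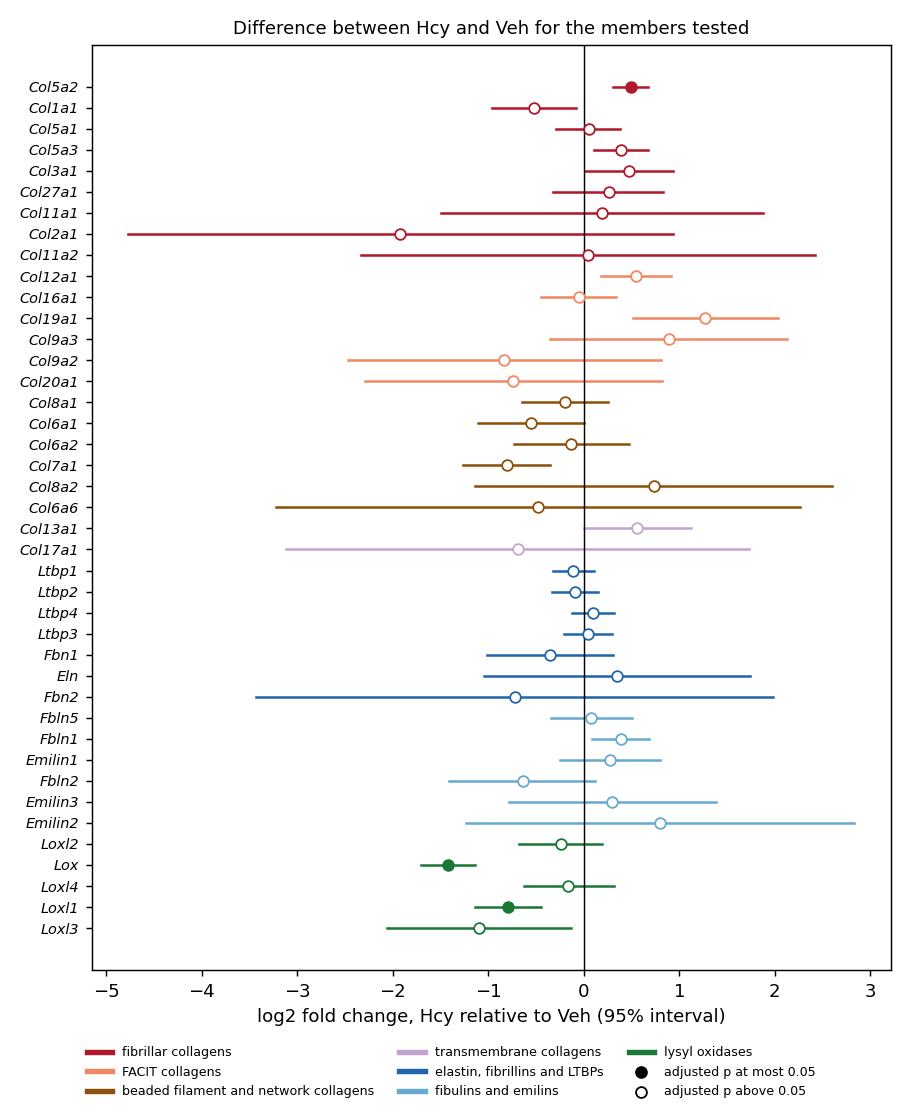
Log2 fold change of Hcy relative to Veh with its 95% interval for the 41 members tested, coloured by group. Filled points passed an edgeR adjusted p of 0.05, which are Lox at -1.42, Loxl1 at -0.79 and Col5a2 at 0.49. The 5 lysyl oxidases lie left of 0, the LTBPs have the narrowest intervals around 0, and the widest intervals belong to genes with few counts.

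The genes that make and mature these proteins were examined from lists of other pathway members. Collagen chains are hydroxylated, glycosylated and folded in the endoplasmic reticulum before export. Of 20 such genes in the table, 19 were tested, 11 higher and 8 lower in Hcy, with a median log2 fold change of 0.06 and 0 past the adjusted p from edgeR, although 2 of them, Serpinh1 and P4ha2, were at an unadjusted p of at most 0.05 (13.4% of all genes) and 1, Serpinh1, passed with DESeq2 (4.59%). Serpinh1, the collagen chaperone HSP47, measured 1305, 1198 and 1198 CPM in Hcy and 1021, 1002 and 1036 CPM in Veh. All Hcy libraries were higher, by a log2 fold change of 0.28 with a standard error of 0.06, past the threshold with DESeq2 (adjusted p = 0.00744) but not with edgeR (adjusted p = 0.0636). P4ha2, a prolyl hydroxylase subunit, had a value of -0.30 (95% interval -0.50 to -0.10, edgeR adjusted p = 0.144). The lysyl hydroxylases Plod1, Plod2 and Plod3, which prepare the lysines for cross-links, had values of 0.00, -0.20 and 0.10.

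Of 7 genes of procollagen processing 5 were tested, 4 higher and 1 lower. Tll1, on chromosome 16 from 27399467 to 27597240 (plus strand), codes for a tolloid-like proteinase that trims procollagen and pro-lysyl oxidase. It measured 5.39, 6.52 and 5.31 CPM in Hcy and 11.9, 10.6 and 8.24 CPM in Veh. The groups did not overlap, and Tll1 fell to a level 44.1% lower (log2 fold change -0.84, standard error 0.18, edgeR adjusted p = 0.0489). This lay at the edge of the threshold. Tll1 passed without Veh replicate 3 (edgeR adjusted p = 0.00576), did not pass when libraries were scaled by their totals alone (edgeR adjusted p = 0.0555), and leaving out any other library gave an adjusted p between 0.0987 and 0.219. Bmp1, the main procollagen C-proteinase, stood at 14.6 RPKM in Hcy and 14.1 in Veh against 1.21 and 2.17 RPKM for Tll1, and its log2 fold change was 0.04 (95% interval -0.13 to 0.22). Adamts2 and Adamts14, N-proteinases, had at most 7 and 5 counts a library.

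Among 17 microfibril partners and copper supply genes 13 were tested, 8 higher and 5 lower (median 0.04), and 0 passed the adjusted p from edgeR, with 2 at an unadjusted p of at most 0.05 that both passed with DESeq2, beside 13.4% and 4.59% of all genes. Adamtsl2, a protein that binds LTBP1 and fibrillin, had 18, 29 and 35 counts in the Hcy libraries against 4, 11 and 3 in the Veh libraries. The groups were separate at a low level (fitted fold 4.58, standard error 0.48 on the log2 scale, edgeR adjusted p = 0.0547, DESeq2 adjusted p = 0.00861). Tgfb1, the cytokine held by LTBPs, measured 256, 223 and 245 CPM in Hcy and 202, 172 and 205 CPM in Veh. It too was higher in every Hcy library (log2 fold change 0.33, 95% interval 0.12 to 0.53), and it passed with DESeq2 (adjusted p = 0.0301) but not with edgeR. Tgfb2 stood at -0.03 (95% interval -0.20 to 0.13). Atp7a, the pump that loads copper onto lysyl oxidases, had a value of -0.20 (95% interval -0.79 to 0.40). Efemp2, the fibulin-4 gene that brings LOX to elastin, had a value of -0.47 (95% interval -1.11 to 0.17). Fn1, the fibronectin on which collagen fibrils form, was far above the collagens per length at 1774 RPKM in Hcy and 1922 RPKM in Veh, with a log2 fold change of -0.12 (95% interval -0.35 to 0.12).

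Fibril-binding proteoglycans were sparse. Of 8 genes 4 were tested and 0 passed the adjusted p from edgeR, with 0 also at an unadjusted p of at most 0.05 and with DESeq2. Bgn, biglycan, was the only one with a mean RPKM of at least 1 and measured 32.9, 28.3 and 29.4 CPM in Hcy and 32.8, 25.5 and 28.4 CPM in Veh. Its groups overlapped (log2 fold change 0.06, 95% interval -0.20 to 0.32). Ogn, Aspn and Omd, small leucine-rich proteoglycans of connective tissue, had 0 counts. The Ogn and Aspn rows overlap Cenpp on the other strand, which had 127 counts.

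**Figure D5:**
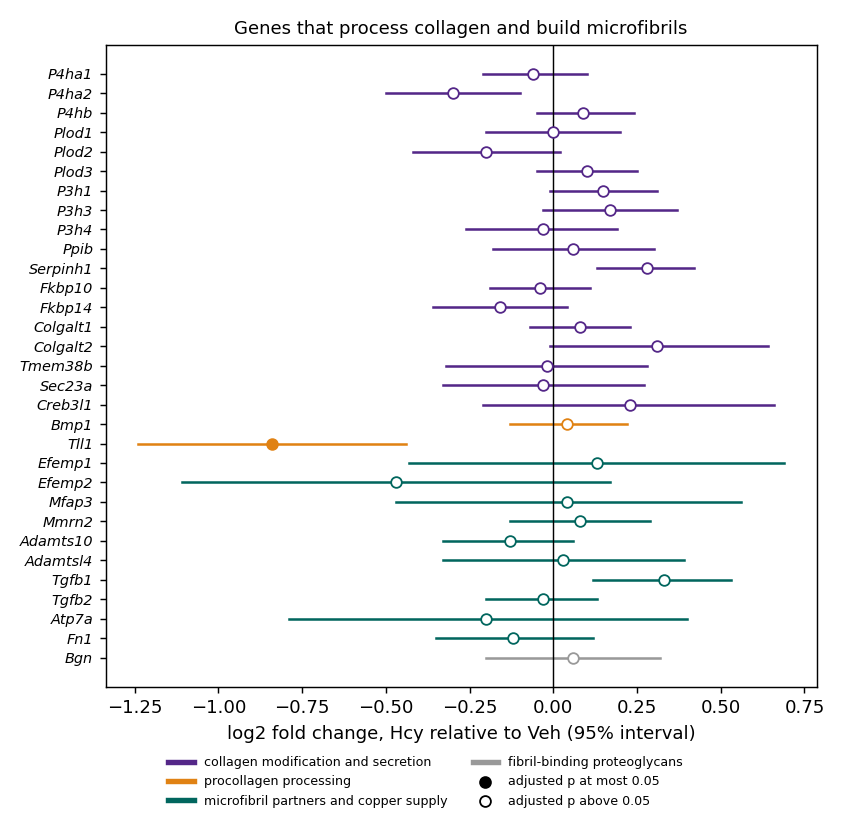
Log2 fold change of Hcy relative to Veh with its 95% interval for the 31 pathway genes outside the set that had a mean RPKM of at least 1. Only Tll1, at -0.84, passed an edgeR adjusted p of 0.05 (filled point). Serpinh1 and Tgfb1, which passed with DESeq2, lie right of 0 at 0.28 and 0.33, and most of the intervals include 0. Adamtsl2, at a mean of 0.294 RPKM, is not plotted.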

How the data were processed

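The authors deposited raw read counts per gene for 6 libraries, with gene symbols, lengths and positions. The submitters' processing notes name fastp, HISAT2 2.2.1, StringTie 2.2.3, Cufflinks, featureCounts 2.0.6 and DESeq2 1.42.0, and the genome builds mRatBN7.2 and rn7, with no role or order. Whether counting used the strand is not given in the sources used here. The count table names no build and its positions on chromosome 1 reach 282724300, so positions are printed as it lists them. A further deposited table holds the authors' own comparison, with normalized values, log2 fold changes and p-values, and was not used.

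Libraries were grouped by their titles. Genes whose counts over the 6 libraries came to 10 or more were compared with edgeR 4.0.16 (R 4.3.3, limma 3.58.1), TMM scaling, its quasi-likelihood test on treatment alone, and Benjamini-Hochberg adjustment over all genes tested. Called means an adjusted p no greater than 0.05 with a log2 fold change of 1 or more in size. The standard error is the absolute log2 fold change divided by the square root of F. RPKM was computed from TMM-scaled CPM and the listed gene length, without effective-length correction. The scripts were tested on simulated data.

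Values in every library are given for members past the adjusted p, members whose groups do not overlap and whose log2 fold change is 0.5 or more in size, the 5 members of the highest mean RPKM, defining members (Col1a1, Col3a1, Eln, Fbn1 and the lysyl oxidases), and other listed genes past the adjusted p. Col5a3, Fbln1, Fbln5, Bgn, Serpinh1, Tgfb1, Adamtsl2 and Pdgfrb were added after their values were seen, as were Myh11, Cspg4, Rgs5, Kcnj8, Thy1, Gja1, Syt1 and the named endothelial markers. The members and lists were chosen with earlier results of these data known. Alternatives were other count minimums, DESeq2's size factors, library totals alone, DESeq2 1.42.0, a replicate block, a prior count of 2, unadjusted p, and leaving out each library in turn. Promoter windows came from RefSeq.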

Additional observations from a re-analysis of the deposited data

How the results depend on the processing

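Lox was the 1 member called in every edgeR and DESeq2 fit with the adjusted p, including all 6 that left out a library (range 1 to 1). With the unadjusted p, 3 members met the fold threshold, which were Lox, Loxl3 and Col19a1, beside 2.56% of all genes tested. Members past the adjusted p numbered 3, with 4 under DESeq2 and 1 to 5 when a library was left out. The count was 1 (Lox) without any 1 of the 3 Hcy libraries or Veh replicate 2, 2 without Veh replicate 1, and 5 without Veh replicate 3 (Col12a1, Col5a2, Lox, Loxl1 and Loxl2). All genes called numbered 71, with 109 without a count minimum, 100 under DESeq2, and 39 (without Hcy replicate 1) to 119 (without Veh replicate 3) when a library was left out. The members' median log2 fold change of -0.05 moved between -0.16 without Veh replicate 3 and 0.03 without Veh replicate 1. Of the 41 members tested, 11 changed sign in at least 1 of the fits that dropped a library, none of them past the adjusted p with all libraries, and 0 in the other alternatives. They were Col5a1, Col27a1, Col11a1, Col11a2, Col16a1, Col6a2, Col6a6, Ltbp3, Fbln5, Ltbp2 (-0.19 to 0.03) and Eln (-0.01 to 1.03). The cause of these shifts was not tested. Another scaling moved the median of all genes by at most 0.01.

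With the replicate number as a block, 3 members again passed the adjusted p, but they were Col1a1 (log2 fold change -0.54, edgeR adjusted p = 0.0331), Col5a2 (0.0315) and Lox (0.00187), while Loxl1 did not (0.0649) and nor did Tll1 (0.0537), and 82 genes were called. The deviations of same-numbered libraries correlated at 0.024, 0.166 and 0.058 over 12296 genes, and those of different-numbered libraries at -0.184 to 0.129. Hcy replicates 2 and 3 each correlated best with the Veh library of the same number. Hcy replicate 1 correlated best with Veh replicate 3 (0.129). These weak correlations neither show nor exclude a pairing by number, so the main fit left it out and the block is given as an alternative. With library totals alone, Tll1 had an edgeR adjusted p of 0.0555. Few counts limit what can be read for genes such as Eln, Fbn2, Loxl3 and most FACIT and cartilage collagens.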
